A study of Mus musculus with 5 samples.

Results

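The 36 genes described here are interferon-stimulated genes, followed gene by gene across the cell classes of the mouse paraventricular hypothalamus (PVH) in 5 single-nucleus RNA libraries. They were taken by symbol from a list put together with earlier results of these data known, and all 36 were among the 31054 features of the count matrices. Between 34 and 36 of them had at least 1 unique molecular identifier (UMI, the tag that marks 1 captured RNA molecule) in each library. The first experiment had 2 libraries from male OT-Cre; Ai9 mice aged 5 weeks, in which Cre under control of the oxytocin gene switches on tdTomato (the Rosa26tm9(CAG-tdTomato)Hze allele). Their mothers had received saline (10 mL/kg, the saline library) or valproate (500 mg/kg, the VPA library) on gestation day 12.5. The second experiment had 3 libraries from male OT-Cre; stop-hM3 mice (Rosa26dreaddm3, a Cre-dependent activating receptor for clozapine-N-oxide, CNO) aged 5 to 7 weeks. All of these were exposed to valproate before birth and received an AAV into the PVH and the supraoptic region. They were given saline (the hM3 control library) or CNO (CNO replicates 1 and 2) on postnatal day 2. All mice had a C57BL6 background and each library pooled nuclei of 2 to 4 males, sorted on DAPI with a preference for large nuclei. Tissue of the first experiment was dissected under tdTomato fluorescence, and what the AAV carried is not given in the sources used here. Genotype, AAV, treatment on postnatal day 2, age range and dissection differ between the experiments and cannot be told apart.

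Interferons are secreted by cells that sense foreign or misplaced nucleic acid, and they act on receptors found on most cell types. The receptors activate JAK kinases, whose signal leads to a complex with STAT2 and IRF9 that binds the interferon-stimulated response element (ISRE) in the promoters of target genes. The induced proteins sense viral RNA, block its translation, tag proteins with the ubiquitin-like ISG15, attack the vacuoles of pathogens or recruit lymphocytes, and in the brain astrocytes, microglia, endothelium and neurons can all express them.

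By role, the members comprise 4 nucleic-acid sensors: Ifih1 (MDA5) and Ddx58 (RIG-I), which bind viral RNA in the cytosol, their helper Ddx60, and Zbp1, a sensor of Z-form nucleic acid that can trigger cell death. There are 4 transcription factors: Stat2 and Irf9 of the ISRE complex, Irf7, which drives interferon genes, and Irf1. A group of 6 enzymes and modifiers holds the ubiquitin-like Isg15, its ligase Herc6 and its protease Usp18, and the ADP-ribosylation genes Parp9, Dtx3l and Parp14. RNA-binding effectors are Ifit1, Ifit2 and Ifit3, Oasl2, Oas2 (a synthetase of the oligoadenylates that activate RNase L) and Eif2ak2. Other antiviral effectors are Rsad2, Samd9l, Trim30a, Xaf1, Ifi44, Rnf213, Bst2 and Ifitm3. The GTPases are Iigp1, Gm4951, Igtp and Irgm1 of the immunity-related family and Gbp2, Gbp3 and Gbp7 of the guanylate-binding family, and Cxcl10 is the chemokine.

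The promoters carry that motif more often than promoters at large, and a few are shown because they let a reader see the element shared by members of different roles. RefSeq promoters of GRCm38.p6, 300 bases long (250 before to 50 after the start), were found for 29 of the 36 members. The ISRE core, GAAA followed after any 2 bases by a second GAAA, on either strand and with overlaps allowed, was present in 18 of the 29 (62.1%) and in 3.99% of the 27025 genes with a promoter in that table. A match is a stretch of letters and no evidence of binding. The following stretches lie wholly upstream of the start, read 5′ to 3′ along the gene's strand, with the matched bases in capitals (paired TTTC is the same core on the other strand); they were chosen after the values were seen.
Ddx60 (chr8:61928022-61928086, plus strand, 65 to 1 bases before the start): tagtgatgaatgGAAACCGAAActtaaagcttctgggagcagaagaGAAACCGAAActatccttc
Stat2 (chr10:128270264-128270297, plus strand, 234 to 201 bases before): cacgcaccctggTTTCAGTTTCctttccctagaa
Isg15 (chr4:156200863-156200908, minus strand, 90 to 45 bases before): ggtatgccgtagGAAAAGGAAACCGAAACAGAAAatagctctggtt
Ifit1 (chr19:34640773-34640825, plus strand, 116 to 64 bases before): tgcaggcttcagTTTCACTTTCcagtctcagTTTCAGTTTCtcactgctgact
Ifit3 (chr19:34583361-34583428, plus strand, 168 to 101 bases before): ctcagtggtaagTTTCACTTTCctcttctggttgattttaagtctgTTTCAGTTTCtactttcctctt
Bst2 (chr8:71537575-71537614, minus strand, 142 to 103 bases before): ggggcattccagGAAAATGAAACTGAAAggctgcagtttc
Igtp (chr11:58199510-58199543, plus strand, 46 to 13 bases before): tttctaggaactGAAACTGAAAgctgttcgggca
Cxcl10 (chr5:92349081-92349114, minus strand, 225 to 192 bases before): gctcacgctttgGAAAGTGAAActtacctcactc
No ISRE core was found in the windows of Rnf213, Herc6, Irf1, Irf7, Irf9, Ifit2, Oasl2, Ifi44, Dtx3l, Xaf1 and Samd9l, and Iigp1, Gm4951, Usp18, Oas2, Parp9, Parp14 and Zbp1 had no entry in the table.

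After filtering, 4115 to 9823 nuclei per library were used, with a median of 3722.5 to 11913 UMIs per deposited nucleus and 52506958 to 76243280 UMIs per deposited library. Clusters were named from marker genes, with the members left out of the clustering genes. The sort preferred large nuclei, so the share of each class was set in part by the gate. Microglia-like nuclei numbered 22 to 136 per library and vascular nuclei (endothelial-like and mural-like together) 15 to 151. Oxytocin neurons, which define the PVH, numbered 45 to 286 per library, and thalamus-type neurons were present as well. Clusters with markers of several classes held 21 and 15 nuclei in the first experiment and 218, 224 and 660 in the second; they were left out of the main classes, and their part in the results was not tested. Any 2 libraries shared 4 to 23 cell barcodes (0.09% to 0.374% of the smaller library). Levels are given as UMIs per 1000000 UMIs of the class (CPM), always in 1 order: the saline and the VPA library of the first experiment, then the hM3 control followed by CNO replicates 1 and 2. Every arm but CNO had 1 library, so no test was made; intervals are exact 95% Poisson (levels), conditional binomial (ratios) or binomial (shares) intervals and cover counting error only. Ifit1, Ifit3 and the Gbp genes have close paralogues between which reads may be divided, so their levels are uncertain. The sources used here do not say whether reads in introns or strand were used in counting. A lower level in a class can mean fewer cells with the RNA or less RNA per cell, and summed levels do not tell these apart.

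In every main class the summed level of the 36 members was higher in all 3 hM3 libraries than in both libraries of the first experiment. The hM3 control, which received no CNO, was among the high libraries. Astrocyte-like nuclei had 265 (246 to 286), 287 (265 to 310.2), 2305 (2262 to 2348), 2095 (2028 to 2164) and 2696 (2643 to 2749) CPM. Mature oligodendrocyte-like nuclei were the lowest of the 4 main glial classes in the first experiment but not in the second, with 87.3 (70.5 to 107), 81.2 (64.6 to 101), 2366 (2287 to 2447), 1188 (1150.5 to 1226) and 2314 (2223 to 2409) CPM. Microglia-like nuclei were high in all libraries, with 1258 (1093 to 1442), 1063 (920.1 to 1222), 6406 (6138 to 6683), 5148 (4744 to 5577) and 5999 (5439.6 to 6600.4) CPM. The groups did not overlap in any of these classes. The rank of oligodendrocytes depended on the clustering: with the members among the clustering genes they were below the progenitors in the second experiment as well, at 469, 484 and 595 CPM against 899, 601 and 719.8 CPM.

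Vascular nuclei had 1151 (962 to 1367), 796 (675 to 933), 3849.7 (3601 to 4111), 2674 (2240.2 to 3167) and 5484 (5280.1 to 5695) CPM, with CNO replicate 1 (15 nuclei) the lowest of the hM3 libraries. The class pools endothelial-like nuclei (22, 20, 37, 9 and 120) at 1473, 1258, 5289.9, 3621 and 5947 CPM with mural-like nuclei (16, 25, 17, 6 and 31) at 505, 192, 783, 869 and 1832 CPM. The levels of the libraries split without overlap in both. In mural-like nuclei the counting intervals did overlap, at 304 to 789 CPM in the saline library, 595 to 1013 CPM in the hM3 control and 487 to 1434 CPM in CNO replicate 1. The share of endothelial-like nuclei was highest in CNO replicate 2. Oligodendrocyte progenitor-like nuclei had 136 (109.99 to 167), 132 (108 to 160.1), 875 (823 to 929.95), 583 (534 to 636) and 759.9 (678 to 849) CPM. Neuron-like nuclei, the largest class, were the lowest, with 66.3 (64.2 to 68.5), 71.2 (68.9 to 73.5), 275 (270.3 to 279), 234 (229.6 to 238) and 305 (299 to 311) CPM. The order of the classes was nearly the same in both experiments, apart from oligodendrocytes. Comparing the lowest hM3 library with the highest library of the first experiment gave 13.6-fold in oligodendrocytes (a level that fell where clustering set a minority of nuclei apart, as given with that class), 7.30-fold in astrocytes, 4.28-fold in progenitors, 4.09-fold in microglia, 3.28-fold in neurons and 2.32-fold in vascular nuclei. The largest ratio of any hM3 library to any library of the first experiment was 29.1-fold, in oligodendrocytes. With the members among the clustering genes, the ratios of oligodendrocytes fell below those of astrocytes, so their first place was lost. Fibroblast-like nuclei, only 3 to 50 in a library, had a summed level of 699 (481 to 981), 689 (386 to 1136), 753 (570.4 to 976), 714 (369 to 1247) and 994 (866 to 1135) CPM, with overlapping counting intervals.

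**Figure D1:**
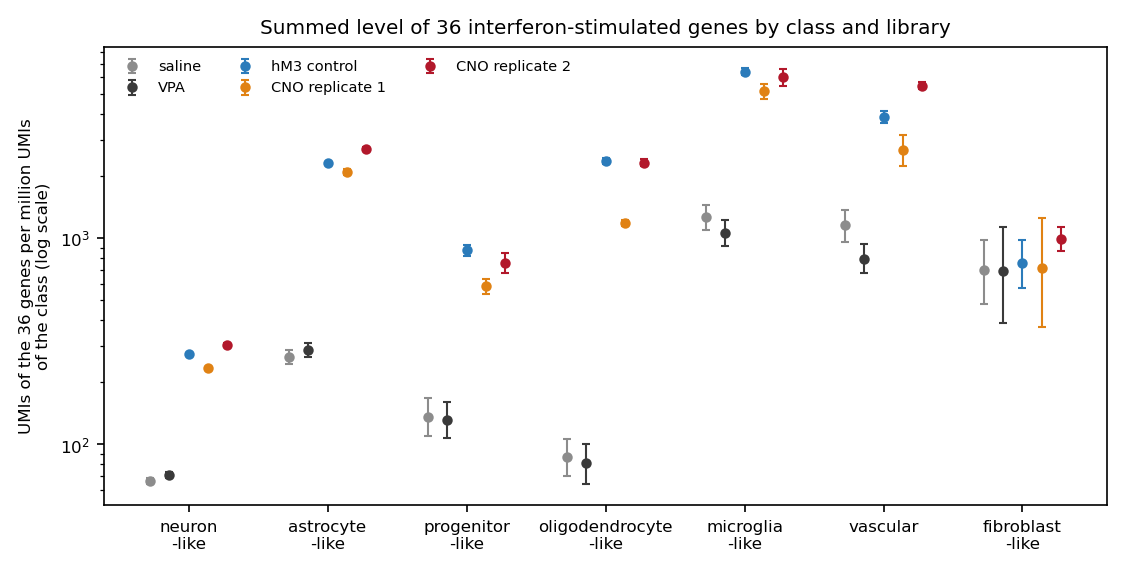
Summed level of the 36 interferon-stimulated genes in each cell class (CPM, log axis); each point is 1 library and the bars are exact 95% Poisson intervals. The 3 hM3 libraries lie above both libraries of the first experiment in the 6 main classes, by 2.32-fold to 13.6-fold at the closest pair.

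For single genes, a member was called higher where log2 of (CPM + 5) in each of the 3 hM3 libraries exceeded that of each of the 2 libraries of the first experiment by at least 1 (2-fold), among features with at least 10 UMIs over the 5 libraries of the class. The list was drawn up with this difference known, so the counts describe it and the share of all features is given only as background. By this rule 33 of 36 members were called in astrocyte-like nuclei (0.556% of all 15996 features tested), 26 of 36 in oligodendrocyte-like nuclei (0.634%) and 8 of 36 in neuron-like nuclei (0.0402%). Smaller classes gave 24 of the 34 members that passed the UMI minimum in microglia-like nuclei (2.84% of features), 14 of 31 in progenitor-like nuclei (0.933%) and 10 of 35 in vascular nuclei (1.47%). No member was called lower in any of the 6 classes, where 0.0813% of features were lower in astrocytes, 0.142% in oligodendrocytes, 0.0223% in neurons, 0.509% in microglia, 0.0986% in progenitors and 0.809% in vascular nuclei. Every member was called in at least 1 class. Oasl2 was the only member called in all 6, Gm4951, Rnf213, Eif2ak2, Usp18, Irf7, Ifit1 and Gbp3 were called in 5, and Ifit2, Oas2, Dtx3l, Bst2 and Zbp1 in 1. The median log2 difference of the hM3 control from the VPA library, both exposed to valproate before birth, was 2.24 for the 36 members in astrocytes, 2.91 in oligodendrocytes and 0.49 in neurons, against 0.01, -0.05 and -0.01 for all features tested.

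**Figure D2:**
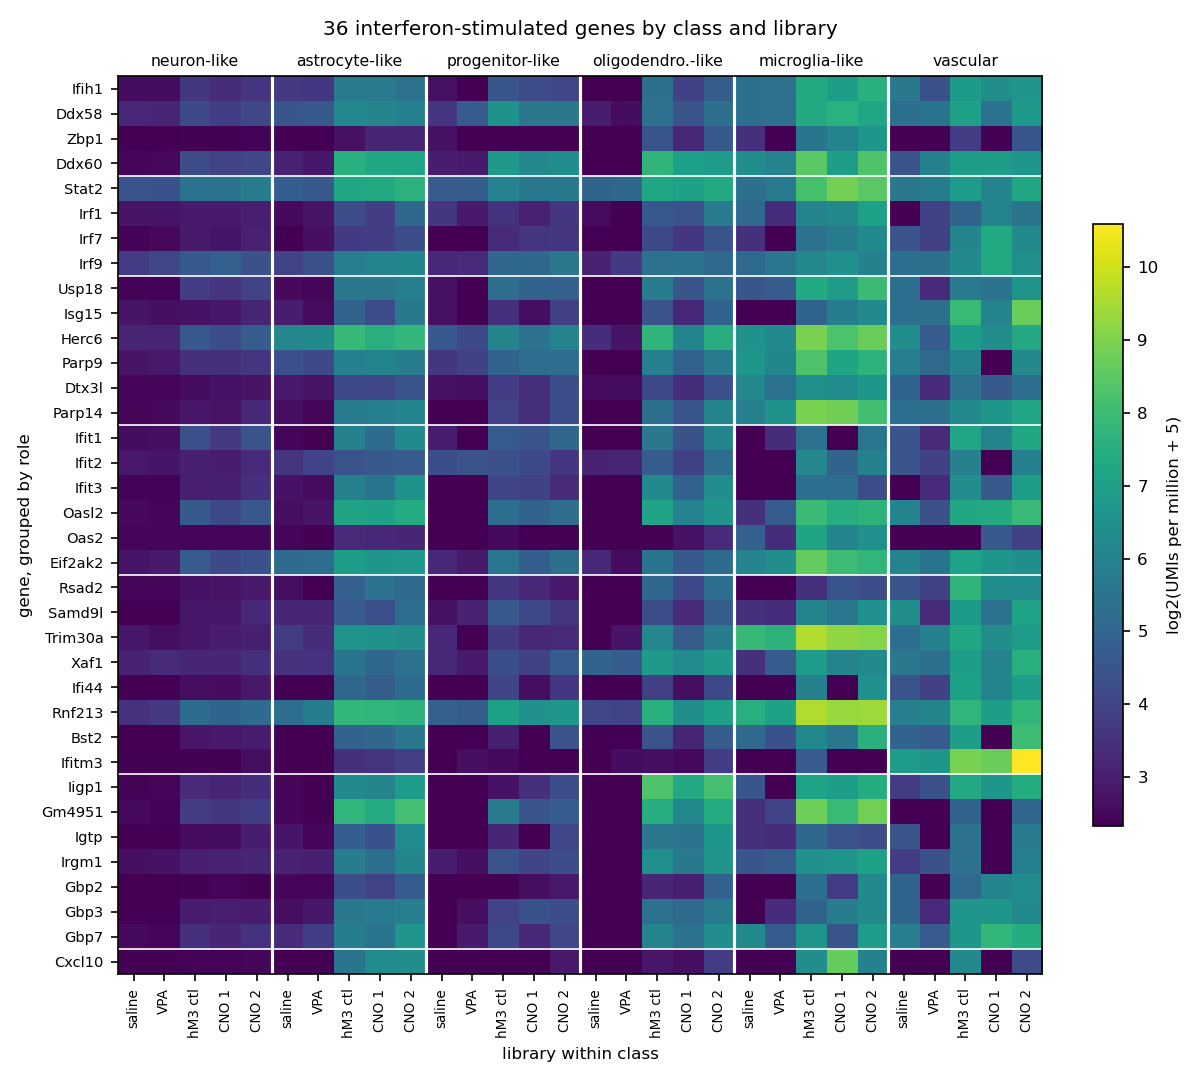
Level of each of the 36 members (rows, grouped by role) in each main cell class and library (columns), as log2(CPM + 5) in the colour scale. Within every class the 3 hM3 columns are brighter (higher) than the 2 columns of the first experiment for most rows, while the rows that stand out differ from class to class.

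In astrocyte-like nuclei the 5 libraries split without overlap for all 36 members, and the hM3 libraries were all above the first experiment for 22.4% of the features tested. Among the sensors, Ddx60, a helicase that assists recognition of viral RNA, had 3.92, 2.23, 187, 147 and 145 CPM. Ddx58 had 18, 20.1, 67.5, 63.4 and 54.7 CPM. Stat2, a subunit of the ISRE complex, had 22.7, 19.6, 149.9, 159.7 and 194 CPM. Both first-experiment libraries were low for each of these genes and the 3 hM3 libraries lay close together. Herc6, the mouse ligase that attaches ISG15 to proteins, was already present in the first experiment and had 66.6, 73.6, 229, 179 and 220.4 CPM. The RNA-binding effectors included Oasl2, a relative of the oligoadenylate synthetases, with 1.18, 1.78, 137, 128 and 167 CPM. Eif2ak2, the kinase PKR that halts translation when it binds double-stranded RNA, had 32.5, 33.9, 118, 99.7 and 101 CPM. Herc6 and Eif2ak2 thus began from a higher level than Oasl2 or Ddx60.

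Among the roles with more than 1 member, the GTPases showed the widest split in astrocytes. Immunity-related and guanylate-binding GTPases coat and disrupt the vacuoles in which pathogens live. Gm4951, an IRG-family GTPase, had 1 UMI in the saline library and none in the VPA library, against 211, 166 and 274 CPM in the hM3 libraries. Iigp1, which encodes the effector Irga6, also had 1 UMI in the saline library and none in the VPA library, against 71.9, 62.9 and 111 CPM. Gbp7 had 5.10, 9.36, 50.2, 41.9 and 94.4 CPM. All 3 were highest in CNO replicate 2. Rnf213, a very large ubiquitin ligase with antimicrobial activity, had 34.5, 50.4, 219, 212 and 199.7 CPM. Trim30a, a tripartite-motif protein that dampens Toll-like receptor signalling, had 9.02, 5.35, 93.5, 88.9 and 80.3 CPM. Cxcl10, the chemokine that attracts CXCR3-bearing T cells, ranked below the 12 members with the most UMIs and is named after its values were seen; it had no UMI in either first-experiment library and 41.8, 77 and 80 CPM in the hM3 libraries, at least 31.3-fold above the level of 3 UMIs per library. Together the 7 GTPases made up 5.02% and 5.43% of the members' UMIs in the first experiment and 18.3% to 25.8% in the second. The members not called were Ifit2, Oas2 and Zbp1. The 23 members without values here lay between 0 and 15.6 CPM in the first experiment and between 1.46 and 88.4 CPM in the hM3 libraries. Microglia markers in these astrocyte-like nuclei, 9 genes, summed to 51.7, 72.2, 42.4, 56.1 and 102 CPM, with only Csf1r of the saline library at 0.

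Astrocyte-like nuclei formed 2 clusters, and 1 of them came largely from CNO replicate 2. Cluster 1 held 613, 1085, 777, 183 and 92 nuclei in the 5 libraries and cluster 2 held 67, 44, 257, 193 and 1483. In cluster 1 the summed level was 266, 285, 1588, 1443 and 1384 CPM, and in cluster 2 it was 264, 333, 4397, 2752 and 2794 CPM. The split between the experiments was thus present in each cluster. CNO replicate 2 exceeded CNO replicate 1 by a ratio of 1.29 (1.24 to 1.34) over the whole class, but the ratio was 0.959 (0.851 to 1.08) within cluster 1 and 1.02 (0.971 to 1.06) within cluster 2. Without cluster 2, 18 in place of 33 members were called higher in the hM3 libraries (0.3% of features).

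Oligodendrocyte-like nuclei had almost no member RNA in the first experiment: 24 of the 36 members had no UMI in either library. All 7 GTPases were among them. Iigp1 had 0 UMIs in both first-experiment libraries and 310.1, 155 and 278 CPM in the hM3 libraries, at least 52.2-fold above the level of 3 UMIs per library. Gm4951 had 0 UMIs in both and 172, 67.2 and 170.5 CPM, at least 22.6-fold higher. Igtp, which encodes the regulatory GTPase Irgm3, had 0 UMIs in both and 43.1, 40.7 and 100.2 CPM. In each of these genes CNO replicate 1 was the lowest of the hM3 libraries and still lay far above the first experiment.

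Members of the other roles gave the same split in oligodendrocytes. Ddx60 had 0 UMIs in both first-experiment libraries and 206, 121 and 112 CPM in the hM3 libraries, at least 37.6-fold above the level of 3 UMIs. Stat2, in contrast, was present before, with 26.9, 28.7, 152, 129 and 162 CPM. Xaf1, a proapoptotic interferon target, was the other member with a sizeable level in the first experiment, at 26, 21.8, 105, 74.8 and 103 CPM. Herc6 had 5.57, 1.98, 207, 61 and 172 CPM. Rnf213 had 12.1, 10.9, 186, 78.8 and 129 CPM. CNO replicate 1 was the lowest hM3 library for Herc6 and Rnf213. Stat2 and Xaf1 together with the other transcription factors and antiviral effectors made up most of the small member signal of the first experiment: the 4 transcription factors held 36.2% and 45.1% of member UMIs there, against 9.40%, 16.3% and 11.2% in the hM3 libraries, where the GTPases held 30.1%, 32.0% and 34.5%. The 28 members without values here reached 7.92 CPM at most in the first experiment and 138 CPM in the second. Microglia markers summed to 26.9, 37.6, 37.5, 28.5 and 63.6 CPM in these nuclei, with at most 4 of the 9 at 0 in a library. The level of this class depended on a minority of nuclei. With the members kept among the clustering genes, the class held 300, 750 and 451 nuclei of the hM3 libraries in place of 363, 834 and 545, and 14 in place of 26 members were called (0.321% of features). Its summed level was then 87.3, 81.2, 469, 484 and 595 CPM, still without overlap. A separate unnamed cluster of 242 nuclei, with 64, 84 and 94 from the hM3 libraries and none from the first experiment, had 8906 CPM and was led by Iigp1.

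In oligodendrocyte progenitor-like nuclei fewer members reached the UMI minimum than in astrocytes. Rnf213 had 23.7, 22, 125, 85.8 and 99.2 CPM and Ddx60 2.97, 2.59, 107, 67.5 and 77.4 CPM. Ddx58 had 7.42, 20.7, 87.7, 43.5 and 43.6 CPM, with the VPA library between the saline library and the hM3 libraries. The hM3 control was the highest library for all 3 genes. The 33 other members reached 21.98 CPM at most in the first experiment and 63.5 CPM in the second. When nuclei were assigned by their summed marker UMIs in place of clusters, 7 members were called (0.0803% of features).

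Microglia-like nuclei had the highest level of the main classes in the first experiment. Endothelial-like nuclei taken alone had more, at 1473 and 1258 CPM in the saline and VPA libraries. The members that led in microglia-like nuclei of that experiment were antiviral effectors and ADP-ribose enzymes. Trim30a had 231, 199, 771, 592 and 541 CPM. Rnf213 had 182, 129, 779.6, 635 and 669.7 CPM. Parp14, an ADP-ribosyltransferase, had 54.7, 91.3, 479, 446 and 271 CPM. For these 3 genes the first experiment was well above 0 and yet did not reach the lowest hM3 library. Herc6 had 91.2, 69.8, 482, 300.3 and 413 CPM, again without overlap. Gm4951 was low in the first experiment, with 6.08, 10.7, 434, 232 and 456 CPM. Cxcl10 had no UMI in the first experiment and 80.3, 395 and 57 CPM in the hM3 libraries, where 1 nucleus held 43 of the 46 UMIs of CNO replicate 1 and another 23 of the 27 UMIs of the hM3 control. Ifitm3, the membrane protein that blocks viral entry, is named after its values were seen and had 7 UMIs in this class, all of them in the hM3 control. The 29 members without values here reached 97.3 CPM at most in the first experiment and 463 CPM in the second. In the same nuclei the 10 astrocyte markers summed to 480.2, 548, 1187, 669 and 2194 CPM and the 8 oligodendrocyte markers to 97.3, 231, 354, 781 and 1026 CPM; the part of this RNA in the result was not tested. Only 15 members had a counting interval above 1 in every pair of libraries (0.985% of features), and 10 were called with nuclei assigned by marker UMIs (0.594%).

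Vascular nuclei were marked by Ifitm3, Isg15 and Bst2. Ifitm3 had 115, 98.9, 483, 419 and 1547 CPM, with CNO replicate 2 far above the other hM3 libraries. Isg15, the ubiquitin-like modifier itself, had 35.4, 36.4, 237, 59.9 and 414 CPM. Bst2, the tetherin that holds budding virions at the cell surface, had 26.6, 20.8, 121, 0 and 254 CPM. For these 3 genes the hM3 control and CNO replicate 2 both lay above the first experiment, whereas CNO replicate 1, with 15 nuclei, had no UMI of Bst2 and was close to the first experiment in Isg15. Among the other leading members, Oasl2 had 62, 15.6, 151, 159.6 and 234 CPM. Iigp1 had 8.85, 15.6, 155, 99.8 and 169.6 CPM, and neither gene overlapped between the experiments. Neuron markers in vascular nuclei summed to 5542, 11337, 3742, 2933 and 3124 CPM, and were higher in the first experiment. The 8 endothelial markers summed to 9703, 5572, 9650.2, 9757 and 10983 CPM, lowest in the VPA library, and the 3 erythrocyte markers to 0, 156, 8.63, 0 and 1652 CPM. Oligodendrocyte markers summed to 159, 193, 337, 1496 and 513 CPM and mural markers to 2178, 1753, 3107, 4011 and 4359.7 CPM, both higher in the hM3 libraries without overlap; the part of these shifts in the result was not tested. The 31 other members reached 79.7 CPM at most in the first experiment and 220.1 CPM in the second. Without CNO replicate 1, 22 in place of 10 members were called (3.37% of features), without the saline library 17 (5.61%), with nuclei assigned by marker UMIs 17 (1.44%), and where the counting interval of every pair had to lie above 1 only 2 (0.322%).

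In neuron-like nuclei single members stayed low, but the large number of UMIs narrowed their counting intervals. Stat2 had the highest level among the factors, 17.4, 16.4, 39.2, 40.2 and 51.4 CPM. Irf9, the DNA-binding subunit of the ISRE complex, had 8.52, 11.9, 19.1, 23.9 and 15.7 CPM. Both were present in the first experiment, and the lowest hM3 library of Irf9 came near the VPA library. Effectors were closer to 0 before: Oasl2 had 0.815, 0.541, 20.2, 12.6 and 18.5 CPM. Eif2ak2 had 1.91, 2.63, 21, 12.7 and 16.2 CPM, and the sensor Ddx60 had 0.532, 0.676, 14, 11 and 12.2 CPM. The hM3 control was the highest library for these 3 genes. Rnf213 had 6.40, 8.06, 33.3, 27.1 and 31.8 CPM and Herc6 4.06, 4.00, 19.1, 15 and 21.4 CPM, again without overlap. The members' RNA was unevenly spread over the nuclei. In the hM3 libraries the 5% of neuron-like nuclei with the most UMIs of a gene held 90.2% to 98.7% of the Gm4951 UMIs, 55.7% to 74.0% of the Oasl2 UMIs and 35.7% to 38.2% of the Stat2 UMIs. With the members kept among the clustering genes, 1 neuron-like cluster of 274 nuclei (145, 70 and 59 in the hM3 libraries, none in the first experiment) had 2259 CPM. The 28 members without values in neurons reached 4.78 CPM at most in the first experiment and 17.04 CPM in the second.

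Groups did not overlap for 31 of the 36 members in neurons, where the hM3 libraries were all above the first experiment for 20.3% of the features tested. The exceptions were Xaf1, Trim30a, Isg15, Oas2 and Ifitm3. Xaf1, which oligodendrocytes carried at a higher level in the hM3 libraries, had 3.63, 4.93, 4.26, 4.20 and 5.97 CPM in neurons. The 8 members called were Gm4951, Rnf213, Herc6, Eif2ak2, Ddx60, Usp18 (the protease that removes ISG15 and restrains the receptor), Ifit1 (a protein that binds foreign RNA ends) and Oasl2. This number rested on the added 5 CPM, which is large beside these levels: 17 were called with 1 CPM added (0.192% of features), none with 20 CPM (0.00446%), and 28 had a counting interval above 1 in every pair of libraries (7.41%).

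**Figure D3:**
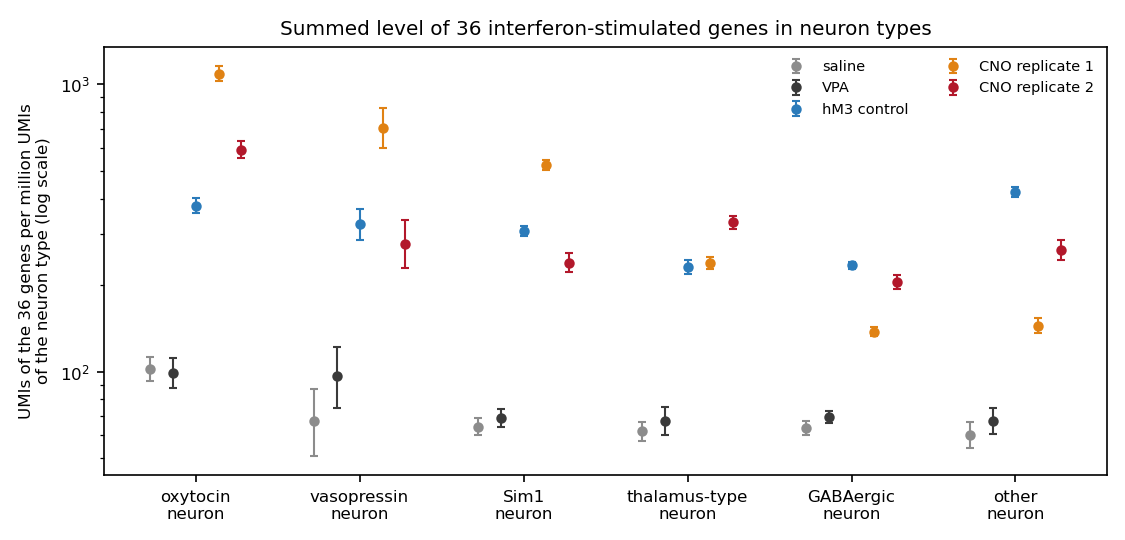
Summed level of the 36 members (CPM) in each neuron type (those of high UMI count left out) and library, with exact 95% Poisson intervals. In CNO replicate 1 oxytocin neurons reached 1089 CPM and GABAergic neurons 138 CPM; in the first experiment the types lay between 60.3 and 102 CPM.

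Neuron types differed in how the hM3 libraries ranked. Oxytocin neurons (sub-clusters with Oxt and the lineage markers) had 102 (92.9 to 112), 99.3 (87.7 to 112), 378 (357 to 400.3), 1089 (1027 to 1153) and 593 (555 to 632) CPM in 218, 286, 135, 45 and 125 nuclei. Vasopressin neurons had 67.4 (51.1 to 87.3), 96.3 (74.6 to 122), 325 (286 to 368), 706 (599 to 826) and 279 (229 to 336) CPM in 63, 101, 47, 13 and 40 nuclei. Other Sim1 neurons had 64.4, 68.9, 308, 524 and 239 CPM. CNO replicate 1 was the highest library in these 3 types, which share the Sim1 lineage. GABAergic neurons had 63.5, 69.8, 234, 138 and 205 CPM, thalamus-type neurons 62, 67.5, 232, 238 and 331 CPM and neurons of none of these types 60.3, 67.5, 422, 145 and 264 CPM. In these types CNO replicate 1 was at 0.588, 1.03 and 0.343 of the hM3 control. Sub-clusters of unusually high UMI count, kept apart from the types, had 70.7, 74.2, 247, 268 and 323 CPM in 124, 101, 244, 195 and 528 nuclei. The ratio of oxytocin to GABAergic neurons was 1.61, 1.42, 1.61, 7.91 (7.39 to 8.46) and 2.89 (2.64 to 3.16).

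Several genes contributed to the excess in oxytocin neurons of CNO replicate 1. Rnf213 had 12.1, 11.6, 42.6, 144 and 60.8 CPM. Stat2 had 17.3, 17.2, 38.1, 105 and 58.8 CPM. A sensor, the ISG15 ligase and an RNA-binding effector were highest in the same library. Ddx60 had 2.61, 3.73, 26, 100 and 28.7 CPM. Herc6 had 7.60, 7.09, 40.6, 91.6 and 35.9 CPM and Oasl2 3.32, 3.36, 24.5, 67.6 and 35.9 CPM. CNO replicate 2 was above the control for 4 of these 5 genes, Herc6 being the exception, while Cxcl10 had 0 UMIs in oxytocin neurons of all 3 hM3 libraries. CNO replicate 1 held only 45 oxytocin neurons. In the same nuclei the 10 astrocyte markers summed to 74.1, 78.4, 90.2, 65.7 and 145 CPM, with Aqp4 and Gfap at 0 in CNO replicate 1. The 9 microglia markers summed to 75.7, 90.7, 50.5, 45.4 and 92.8 CPM, with C1qa, C1qb, C1qc and Siglech at 0 there, and the 8 oligodendrocyte markers to 43.0, 49.3, 42.2, 65.7 and 84.9 CPM, with none at 0 there. Astrocyte and microglia markers were lowest in CNO replicate 1, whereas its oligodendrocyte markers lay above those of the saline, VPA and control libraries; the part of this RNA in the result was not tested.

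Per nucleus, the difference lay both in how many nuclei had UMIs of members and in how many members were detected in a nucleus. The part of RNA from outside the nucleus in these counts was not tested. To remove the effect of depth, each nucleus was thinned at random to 1000 UMIs. Astrocyte-like nuclei with 3 or more members then made up 0.441% (0.0911 to 1.28), 0.0886% (0.00224 to 0.493), 23.2% (20.7 to 25.9), 20.5% (16.5 to 24.9) and 27.7% (25.5 to 29.96); without thinning the shares were 6.03%, 1.77%, 62.8%, 55.1% and 47.5%. Among oligodendrocyte-like nuclei they were 0 of 294 (at most 1.25%) and 0 of 497 (at most 0.739%) in the first experiment, and 19.6% (15.6 to 24.0), 10.4% (8.44 to 12.7) and 17.8% (14.7 to 21.3) in the second (0.340%, 0%, 32.5%, 26.7% and 25.9% unthinned). Microglia-like nuclei gave 11.9%, 5.88%, 69.1%, 59.1% and 61.3%, and neuron-like nuclei 0%, 0%, 2.03%, 1.52% and 1.77% (5.92%, 1.31%, 33.9%, 31.1% and 30.6% unthinned). The median depth was 3522.5, 1854, 4256, 4386.5 and 2053 UMIs in astrocyte-like nuclei and 13267, 6191, 16102, 17201.5 and 10027.5 in neuron-like nuclei, so the neurons were the deeper class and had the lower shares. In the hM3 libraries, 32.8% to 41.2% of thinned astrocyte-like nuclei had no member at all, while 7.71% to 13.1% had 5 or more and the highest single nucleus had 24. In the first experiment 76.0% and 74.0% had none, and no nucleus had more than 4.

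**Figure D4:**
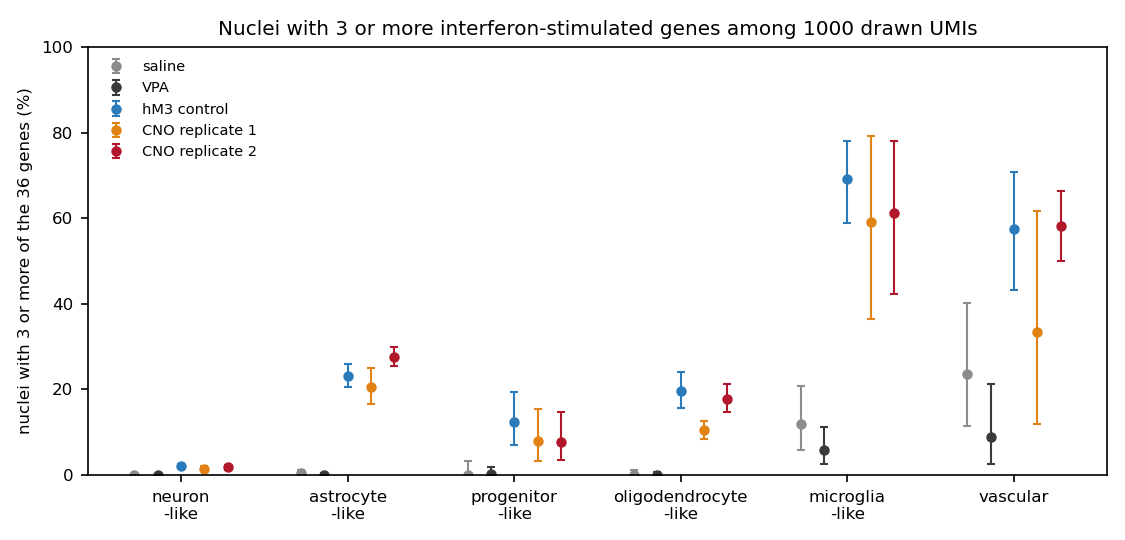
Share of nuclei with 3 or more of the 36 members after thinning each nucleus to 1000 UMIs (percent), by class and library, with exact 95% binomial intervals. Astrocyte-like nuclei reach 20.5% to 27.7% in the hM3 libraries and stay under 0.442% in the first experiment.

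Among the 6 main classes, microglia and vessels carried most members at the highest level. By the mean of the 5 libraries, microglia-like nuclei had the highest CPM for 20 of the 36 members, vascular nuclei for 14 and oligodendrocyte-like nuclei for Iigp1 and Igtp. The proportion between genes differed between classes as well as their level. In oligodendrocytes the hM3 libraries had 1.81, 2.31 and 1.63 Iigp1 UMIs per Gm4951 UMI, in astrocytes 0.340, 0.379 and 0.407, and in neurons 0.552, 0.527 and 0.602. Cxcl10 per Oasl2 UMI was 0.304, 0.602 and 0.478 in astrocytes, and 0.0155, 0.0216 and 0.0297 in neurons.

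Neonatal CNO was given to ask how stimulation of oxytocin neurons changes the hypothalamus later on. In oxytocin neurons the summed level was above the hM3 control in both CNO libraries, at 2.88 (2.65 to 3.12) and 1.57 (1.44 to 1.71) times its value, while the main classes showed no common rise. The level of the cluster with Avp and Oxt fell with the members among the clustering genes, as given with the neuron types. No member was 2-fold above the control in both CNO libraries in any of the 6 classes, with all features called at 0.0568% in neurons, 0.172% in astrocytes, 0.98% in progenitors, 0.348% in oligodendrocytes, 3.62% in microglia and 4.05% in vascular nuclei. In vascular nuclei Rsad2, which encodes the antiviral enzyme viperin, and Cxcl10 were 2-fold lower in both (2.92% of features), but in the control 1 nucleus held 38 of the 48 Rsad2 UMIs and 1 nucleus all 16 of Cxcl10. The median log2 difference of the 36 members was -0.02 and 0.12 in neurons and -0.08 and 0.31 in astrocytes (CNO replicates 1 and 2), against 0.03 and 0.03, and 0.04 and 0.09, for all features. Within each astrocyte-like cluster the summed level of both CNO libraries was below the control, and 1483 of the 1575 astrocyte-like nuclei of CNO replicate 2 were in cluster 2, the cluster with the higher level in the hM3 libraries. In oligodendrocytes the median was -0.95 and 0.18, against 0.07 and 0.15. The summed level of CNO replicate 1 was 0.502 (0.479 to 0.526) of the control in oligodendrocytes, and that of CNO replicate 2 was 0.978 (0.928 to 1.03). With the members among the clustering genes, both CNO libraries were above the control in oligodendrocytes, by the levels given with that class. A count of 0 with 1 control library does not show that CNO had no effect.

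CNO was the only arm with more than 1 library, and those 2 libraries did not match for all members. CNO replicate 2 was 2-fold above CNO replicate 1 for 18 of 36 members in oligodendrocytes (3.85% of features), for 5 of 36 in astrocytes (1.48%; Irf1, Ifit1, Isg15, Gbp7 and Igtp), for 15 of 33 in vascular nuclei (26.1%), for 4 of 28 in microglia (9.07%; Ddx60, Usp18, Gbp7 and Bst2), and for none of 36 in neurons (0.617%) or 22 in progenitors (4.48%). Igtp in astrocytes, named after its values were seen, had 1.96, 0.446, 23, 16.4 and 77 CPM. Cxcl10 went the other way in microglia, through the single nucleus given above (14.5% of features were lower), as Irf7 did in vascular nuclei (10.3%). The astrocyte count changed with the settings, with 8 called among nuclei of at least 2000 UMIs (1.39% of features), 1 with 20 CPM added (0.142%) and 16 by the counting interval (14%).

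Prenatal valproate was compared with prenatal saline within the first experiment, where the members were low in both libraries. None of 28 members was 2-fold higher in neurons of the VPA library (0.0145% of features), none of 16 in astrocytes (0.365%) and none of 4 in oligodendrocytes (2.88%). Ddx58 was higher in progenitors (1 of 6 members, 3.02%) and Ddx60 in vascular nuclei (1 of 16, 14.1%), and none of 13 in microglia (7.73%). Gbp7 was lower in microglia (4.52% of features), and Herc6, Oasl2, Gbp7 and Samd9l were lower in vascular nuclei (8.99%). The summed ratio of the VPA to the saline library was 1.07 (1.03 to 1.12) in neurons and 1.08 (0.970 to 1.21) in astrocytes. It was 0.967 (0.722 to 1.30) in progenitors, 0.930 (0.683 to 1.26) in oligodendrocytes, 0.845 (0.692 to 1.03) in microglia and 0.692 (0.544 to 0.881) in vascular nuclei, whose interval alone lay below 1. Endothelial-like nuclei made up 22 of 38 vascular nuclei in the saline and 20 of 45 in the VPA library. Their levels were 1473 (1212 to 1774) and 1258 (1056 to 1487) CPM, and those of mural-like nuclei 505 (304 to 789) and 192 (110 to 312) CPM. The intervals overlapped in each. The part of this make-up in the vascular ratio was not tested.

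Upstream of the members, the receptors differed little between the experiments and interferon RNA was too scarce to compare. The 21 ligand genes (Ifnb1, the Ifna family, Ifng, Ifnl2, Ifnl3 and others) had only 4 to 6 UMIs in all in each library, so their level was not measurable at this depth. The 9 receptor and kinase genes, Ifnar1, Ifngr1 and Jak1 among them, gave no call between the experiments in any class and summed to 263, 288, 317, 310.4 and 294 CPM in astrocytes. In neurons they summed to 181, 186, 200.4, 202 and 187 CPM. In both classes the hM3 libraries lay slightly above the first experiment, in neurons by 187 against 186 CPM at the closest pair. The same order held for 22.4% of the features tested in astrocytes and 20.3% in neurons. Of the 14 nucleic-acid sensing genes, only Dhx58 in microglia was called between the experiments. Of all features, 0.0402% (neurons) to 2.84% (microglia) were called. At such shares lists of 9 or 14 genes would hold few calls or none, so these counts do not set the lists apart.

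Part of the other induced genes were called as well. Of 65 such genes in the files, a list also put together with earlier results known, 23 of the 55 tested were called between the experiments in astrocytes (0.556% of all features), 22 of 44 in oligodendrocytes (0.634%), 30 of 53 in microglia (2.84%), 11 of 51 in vascular nuclei (1.47%) and 4 of 28 in progenitors (0.933%). Among the genes of antigen presentation, H2-K1, a classical MHC class I heavy chain, had 1.86, 0.990, 114, 180.5 and 139 CPM in oligodendrocytes. B2m, its light chain, had 0.929, 0, 61.2, 96 and 65.5 CPM there. Nlrc5, the activator of class I genes, had 1.86, 0, 183, 93.8 and 148 CPM. All 3 were near 0 in both first-experiment libraries. In astrocytes Irgm2, another regulatory GTPase, had 3.53, 3.12, 55.2, 44.2 and 136 CPM and was highest in CNO replicate 2, as Igtp was.

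**Figure D5:**
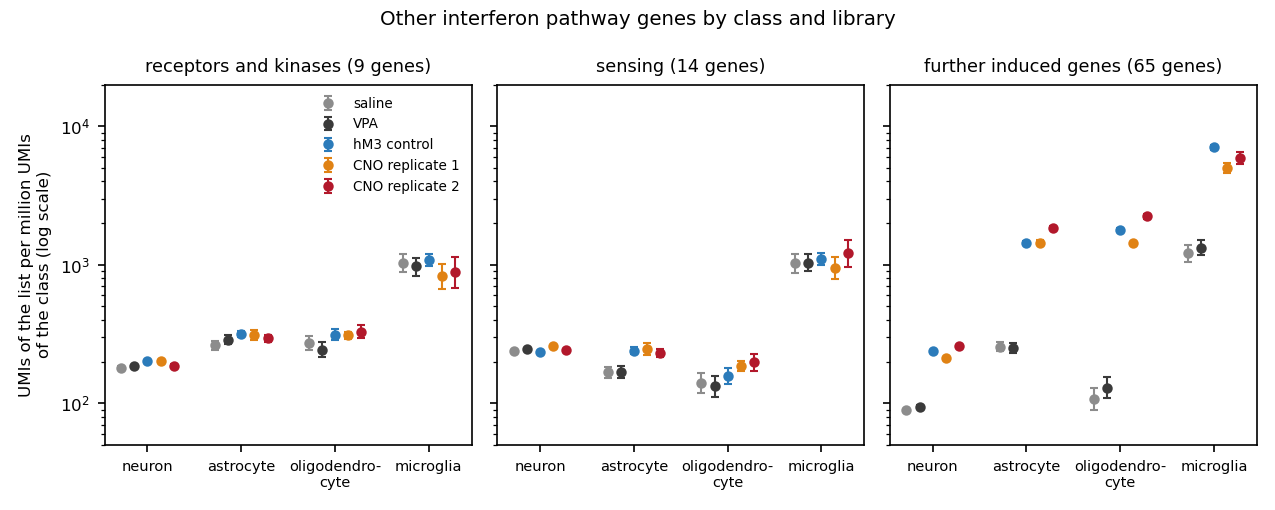
Summed level of 3 fixed gene lists of the interferon pathway (CPM, log axis) in neuron-like, astrocyte-like, oligodendrocyte-like and microglia-like nuclei of each library; each point is 1 library and bars are exact 95% Poisson intervals. Receptors and kinases differ little (263 and 288 CPM in astrocytes of the first experiment, 294 to 317 CPM in the hM3 libraries), while the further induced genes are higher in the 3 hM3 libraries (1439 to 1850 CPM in astrocytes against 252 and 257).

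Outside the members, the genes whose level over the 30 combinations of main class and library was most like the summed member level were Parp12 (Pearson's r = 0.955 on log2 of CPM + 5), H2-K1 (0.941), B2m (0.940), Tap1 (0.936), Trim34a (0.929), Irgm2 (0.928), H2-D1 (0.928), Tmbim6 (0.904), Pml (0.902) and Trim12c (0.897). The points share libraries and depth, so these values are a description. Tmbim6 and Trim12c were the only 2 of the 10 that no list above holds.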

How the data were processed

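The 5 libraries of 10x Genomics nuclei were analysed from the deposited UMI counts per feature and barcode; per the submitters' processing notes the authors used Cell Ranger 7.0.1 and mm10, and whether introns were counted is not given in the sources used here. Barcodes below 1000 UMIs or above 5% mitochondrial UMIs were dropped, and the top-scoring nuclei of a doublet simulation (Scrublet in scanpy 1.11.5) were removed, at 0.8% per 1000 nuclei (169 to 950 per library). Clustering used 1924 variable genes without Oxt, Avp and the interferon genes, 30 principal components, 20 neighbours and the Leiden method (leidenalg 0.10.2, scikit-learn 1.9.0), giving 35 clusters, and 59 sub-clusters of neurons. A cluster was named where 3 listed markers reached 3 times the mean of all nuclei and 5 CPM (0.5 times for neurons); these thresholds were set after the clusters were seen. Clusters with markers of several classes (15 to 660 nuclei per library) were left out of the main classes. Levels are sums of counts per class and library divided by all UMIs of that class. The 2-fold call was tested on simulated counts. The members and the pathway lists were chosen with earlier results of these data known. Values in every library were printed for at most 12 members per class with the most UMIs, and for any member whose highest library was at least 4-fold above all others; genes outside this rule are marked, and the antigen-presentation genes were picked after their values were seen. Each library pools 2 to 4 mice, so intervals hold no spread between animals. Alternatives covered doublets, UMI minimum, clustering genes, marker-based classes, added CPM, call rule, scaling and left-out libraries; the comparison between experiments and the runs without astrocyte-like cluster 2 or without nuclei of unusually high UMI count were chosen after seeing the data. Some pathway results are not reported here.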

Additional observations from a re-analysis of the deposited data

Results flagged for a closer look

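Classes moved in opposite directions between the CNO libraries and the hM3 control; the differences between classes were not tested, since the control is 1 library. Both CNO libraries were above the control in the summed member level in oxytocin neurons (CNO replicate 1 at 2.88 times and CNO replicate 2 at 1.57 times the control), in thalamus-type neurons (1.03 and 1.43) and in neurons of unusually high UMI count (1.08 and 1.31). Both were below it in oligodendrocyte progenitor-like nuclei (0.666 and 0.868), oligodendrocyte-like nuclei (0.502 and 0.978), microglia-like nuclei (0.804 and 0.936), GABAergic neurons (0.588 and 0.876) and neurons of no named type (0.343 and 0.626). Ependymal-like nuclei (1861 CPM in the control, 868 and 538 CPM in the CNO libraries) and clusters with markers of several classes (797 CPM, then 526 and 567 CPM) were also below it in both. In thalamus-type neurons, neurons of unusually high UMI count, oligodendrocytes and microglia 1 of the 2 ratios lay close to 1. The direction in oligodendrocytes depended on the clustering. With the members among the clustering genes, both CNO libraries were above the control there, by the levels given with that class. Oxytocin neurons numbered 45 in CNO replicate 1, so their direction rests on few nuclei there.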

How the results depend on the processing

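Members called higher in the hM3 libraries than in the first experiment: 17, 0 and 28 in neurons with 1 CPM added, 20 CPM added and the counting interval of each ratio above 1; 18 in astrocytes without cluster 2; 7 and 4 in progenitors with classes from marker UMIs and 20 CPM added; 14 and 14 in oligodendrocytes with the members among the clustering genes and 20 CPM added; 10 and 15 in microglia with classes from marker UMIs and the counting interval; 17 and 2 in vascular nuclei with the same 2 changes. Leaving out each library in turn gave 8 to 9 in neurons, 33 in astrocytes, 14 to 18 in progenitors, 26 to 32 in oligodendrocytes, 22 to 28 in microglia and 10 to 22 in vascular nuclei, where CNO replicate 1 (22 without it) and the saline library (17 without it) decided. The share of all features moved as well, upward in vascular nuclei as given with that class, so none of these counts is to be read alone. With all libraries and the main rule it was 0.0402% in neurons, 0.556% in astrocytes, 0.933% in progenitors, 0.634% in oligodendrocytes, 2.84% in microglia and 1.47% in vascular nuclei. Members above the control in both CNO libraries, none at first, became 3 in neurons and 1 in astrocytes by the counting interval. They became 1 in astrocytes, progenitors and oligodendrocytes with 1 CPM added, and 1 in vascular nuclei with doublets kept or with no minimum of UMIs. With 1 of the CNO libraries left out the counts were 0 in neurons, 0 to 1 in astrocytes and progenitors, 0 to 4 in oligodendrocytes, 1 to 5 in microglia and 3 in vascular nuclei. The share of all features moves with each of these changes and is not given beside the counts, so they are no result about the members. By the main rule it was 0.0568% in neurons, 0.172% in astrocytes, 0.98% in progenitors, 0.348% in oligodendrocytes, 3.62% in microglia and 4.05% in vascular nuclei. In astrocytes, CNO replicate 2 was above CNO replicate 1 for 8 members with at least 2000 UMIs per nucleus, 1 with 20 CPM added and 16 by the counting interval, and the VPA above the saline library for 1 by the counting interval. The summed astrocyte level without the 3 members with the most UMIs was 164, 163, 1645, 1538 and 2002 CPM; as a mean over nuclei it was 2206 in the hM3 control and 2503 in CNO replicate 2, which had 2900 with at least 2000 UMIs per nucleus and 2642 with classes from marker UMIs. The share of astrocytes with 3 or more members was 1.37%, 1.55%, 42.3%, 34.2% and 49.9% when thinned to 2000 UMIs and 6.03%, 1.77%, 62.8%, 55.1% and 47.5% unthinned, and the share with 2 or more was 3.68%, 2.92%, 37.8%, 31.9% and 42.8%. The causes of these shifts were not tested. Of the values recomputed, 72 of 86 counts between the experiments, 54 of 68 against the hM3 control, 40 of 56 between the CNO libraries and 46 of 56 for VPA stayed within 1.5 times; 123 of 136 levels of single members, 106 of 180 summed levels and 37 of 75 shares of nuclei stayed within their counting interval, so 74 summed levels and 38 shares moved beyond it. No paired analysis was possible because only the CNO arm has more than 1 library.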

Other observations

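T or NK cells, named from markers that include Cd3e and Nkg7, made up 0.135%, 0.0102%, 0.324%, 0.486% and 0.278% of nuclei in the 5 libraries (7 and 1 nuclei in the saline and VPA libraries, 16 in the hM3 control, 20 and 15 in CNO replicates 1 and 2). Their summed member level was 3094, 770, 8568, 9811 and 3030 CPM. In CNO replicate 2 the T or NK markers summed to 568 CPM, against 2147 and 3559 CPM in the hM3 control and CNO replicate 1, and neuron markers to 14213 CPM against 7718 and 7101 CPM. Committed oligodendrocyte progenitor-like nuclei had a summed member level of 78.3, 127, 1113, 985 and 1268 CPM, and ependymal-like nuclei 211, 208, 1861, 868 and 538 CPM. Nuclei of clusters with markers of several classes, 21, 15, 218, 224 and 660 in the 5 libraries, had 204, 226, 797, 526 and 567 CPM.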
